A study of Mus musculus with 11 samples.

Results

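The 10 genes described here encode secreted or membrane-bound signals of brain immunity. They are the CC chemokines Ccl3, Ccl4 and Ccl6, the CXC chemokines Cxcl12 and Cxcl16, the CX3C chemokine Cx3cl1, and the cytokines Tgfb1, Csf1, Il33 and Il34. They were chosen by symbol from the 53700 gene identifiers in the count tables, and all 10 matched 1 identifier each. The tissue was the cerebral cortex. All mice were female, 8 months of age, of a strain labelled C57BL/6 and carriers of the 5xFAD transgenes, and 6 of them were Abi3 wildtype (Abi3 WT) while 5 were Abi3 knockout (Abi3 KO). 5xFAD mice express mutant human transgenes, APP among them, from the neuronal Thy1 promoter and deposit amyloid. No cortex without amyloid transgenes enters the comparison. The Abi3 deletion is a germline null allele made in C57BL/6N mice, so it is not restricted to microglia. The 5xFAD line had some SJL ancestry, and every mouse was heterozygous for a Trem2 variant of SJL origin. Libraries were made by QuantSeq, which reads the 3′ end of transcripts with a poly(A) tail.

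Chemokines are small proteins that bind G protein-coupled receptors and steer the movement of cells. In the brain, neurons, glia and vessels release chemokines and cytokines that position microglia, keep them alive or activate them. Cx3cl1 and Il34 come mainly from neurons and act on the microglial receptors Cx3cr1 and Csf1r. Csf1 comes from glia and shares the receptor Csf1r, and Tgfb1, made largely by microglia themselves, holds them in their resting state. Ccl3, Ccl4 and Ccl6 are made by microglia and other myeloid cells. Cxcl12 is released by vessels and meninges, and Il33 is a nuclear alarmin of oligodendrocytes and astrocytes that is set free when cells are damaged. ABI3 is a microglial actin regulator, and the question was whether its loss changes the RNA of such inflammatory mediators in an amyloid-laden cortex.

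The chemokine classes are named for the spacing of the first 2 cysteines of the mature protein, which can be read in the coding sequence. The windows of 30 bases that follow show this spacing for 5 of the chemokines, 5′ to 3′ on the coding strand, with the 2 cysteine codons in capitals. The codons touch in the CC genes Ccl4 and Ccl6, are 1 codon apart in the CXC genes and 3 codons apart in Cx3cl1.
Ccl4: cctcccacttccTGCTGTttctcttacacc
Ccl6: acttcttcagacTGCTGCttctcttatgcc
Cxcl12: gagctaccgaTGCcccTGCcggttcttcga
Cxcl16: cgctggaagtTGTtctTGTgatcgtaccat
Cx3cl1: gacgaaaTGCgaaatcatgTGCgacaagat

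These windows were read from GENCODE transcripts on GRCm39, the build used for counting. They lie in coding exon sequence at chr11:83554296-83554325 (plus strand, exon 2 of 3) for Ccl4 and chr11:83480200-83480229 (minus strand, exon 3 of 4) for Ccl6. Those of Cxcl12, Cxcl16 and Cx3cl1 are at chr6:117148459-117148488 (plus strand, exon 2 of 4), chr11:70349942-70349971 (minus strand, exon 2 of 5) and chr8:95504672-95504701 (plus strand, exon 2 of 3). Thus 4 of the 10 genes share chromosome 11 with the deleted Abi3 gene, at distances of 12.2 Mb for Ccl3, Ccl4 and Ccl6 and 25.4 Mb for Cxcl16. Whether the chromosome around the deletion differs between the genotypes in this stretch was not tested. The cytokines lie elsewhere: Tgfb1 on chromosome 7 (25386390 to 25404506), Csf1 on chromosome 3 (107648364 to 107667806), Il33 on chromosome 19 (29902483 to 29938933) and Il34 on chromosome 8 (111423928 to 111532584). Over the last 500 bases of the transcript, where these reads fall, only Ccl6 matched another gene over 100 bases or more, with 81.4% identity to Slc17a4 over 177 bases.

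The libraries held 3202310 to 5501958 reads in genes. Abi3 itself had 10 to 38 raw counts in the Abi3 WT animals and 0 to 2 in the Abi3 KO animals. Reads outside genes amounted to 59.3 to 68.8 per 100 reads in genes in Abi3 WT and 49.8 to 62.5 in Abi3 KO libraries, so this share moved with the genotype. Libraries of 3 animals, Abi3 WT replicate 4 and Abi3 KO replicates 1 and 5, had more than 1000 raw counts of Ttr, a gene of the choroid plexus, against 48 to 131 in the others. Results that moved without these 3 libraries are given with both values.

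None of the 10 genes passed the threshold of the study's test, but only 5 of them could. The threshold was a DESeq2 Benjamini-Hochberg adjusted p at or below 0.05 over all genes, which 95 of 17626 tested genes reached (0.539%). DESeq2's independent filter gives no adjusted p to genes with a mean normalized count under 70.4, so 6487 genes had one, among them Ccl6, Cxcl12, Cx3cl1, Il33 and Il34, whereas Ccl3, Ccl4, Cxcl16, Tgfb1 and Csf1 had none and could not pass. With the filter off, all 10 had an adjusted p and 0 passed, and the same held for the tested genes of the pathway and marker lists. At an unadjusted DESeq2 p under 0.05 there were 2 of the 10, Il33 on the higher side and Cxcl12 on the lower side, against 8.58% of all tested genes. In no member were the values of the genotypes free of overlap, which was seen in 1.04% of all genes. edgeR and limma called 0 of the 10 as well. The median log2 fold change of the members was -0.00062, and that of all tested genes was -0.0033. The sections that follow give each gene in normalized counts, which are counts divided by a size factor of the library.

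**Figure D1:**
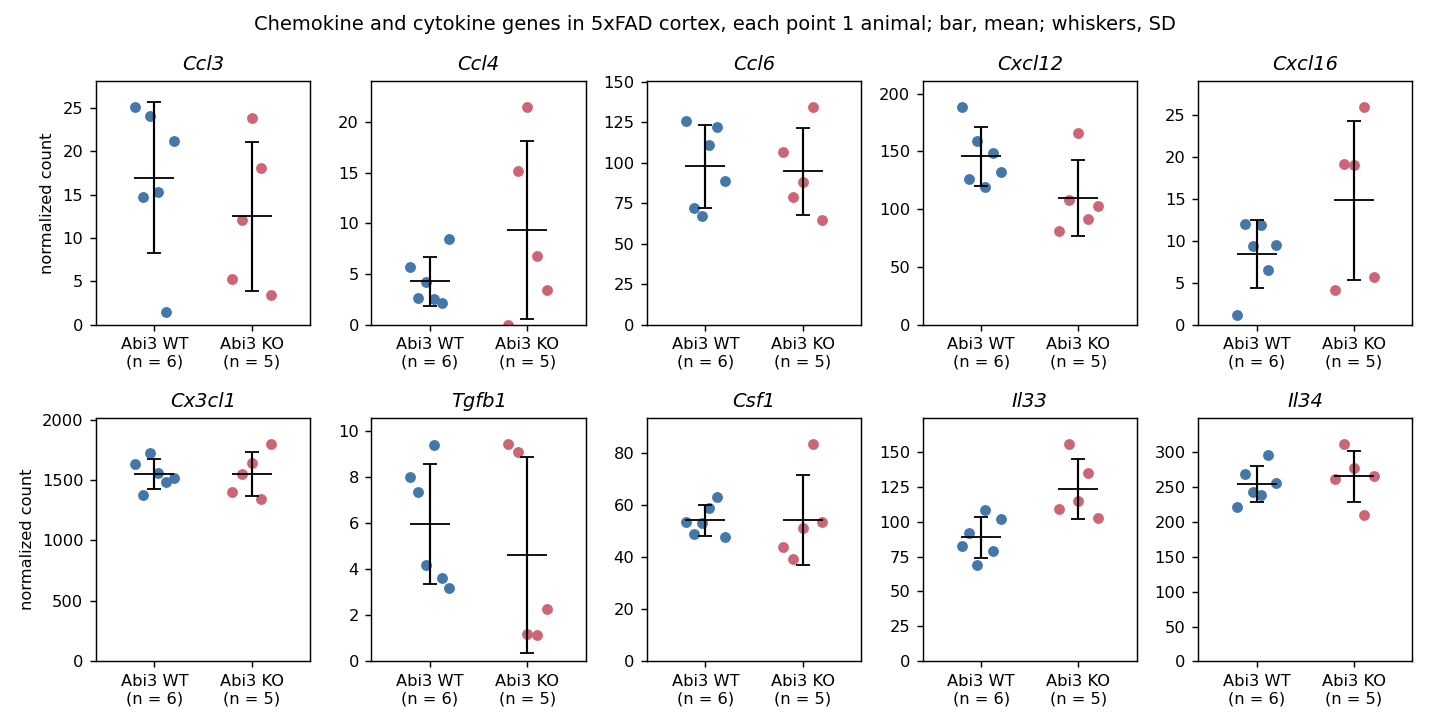
Normalized counts of the 10 genes (vertical axes from 0, each with its own scale) in 6 Abi3 WT and 5 Abi3 KO cortices; each point is 1 animal, the horizontal bar is the mean and the whiskers are the SD. The genotypes overlap in every panel; in Il33, 4 of 5 Abi3 KO animals lie above all Abi3 WT animals, and in Cxcl12, 4 of 5 lie below them.

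Il33, the alarmin, had the smallest p-value of the group and was higher in Abi3 KO cortex. Its normalized counts were 69.0 at the lowest, 86.9 at the median and 108 at the highest among the Abi3 WT animals. The Abi3 KO animals had 109, 156, 115, 134 and 102. Thus 4 of 5 Abi3 KO values lay above every Abi3 WT value, and the fifth lay above the Abi3 WT median. The means were 88.6 ± 14.7 (SD, n = 6) and 123 ± 21.7 (SD, n = 5). DESeq2 gave a log2 fold change of 0.48 (SE 0.172, 95% interval 0.14 to 0.81) and an adjusted p of 0.155, so the increase did not pass over all genes. An exact permutation test of the 11 animals, two-sided and not adjusted for the number of genes, gave p = 0.00866, where 0.00433 is the smallest possible. Leaving out 1 animal at a time gave log2 fold changes of 0.38 to 0.54, and without the 3 libraries rich in Ttr the value was 0.67.

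The cells that make Il33 were examined by their markers. All 6 oligodendrocyte markers had positive log2 fold changes, from 0.028 for Mbp to 0.30 for Mog, and none passed the threshold. Their summed level ranged from 2024 to 2718 CPM (library-scaled counts) in Abi3 WT and from 2053 to 2923 in Abi3 KO libraries. Of 6 astrocyte markers, 1 had a positive log2 fold change, Gfap at 0.24, and none passed, with summed levels of 3140 to 3593 and 3075 to 3531 CPM. The part of these markers in the Il33 values was not tested. In bulk tissue, a difference in the number of cells of a type and a difference in the RNA per cell cannot be told apart.

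The receptor side of Il33 was close to the limit of detection. Il1rl1, the receptor that binds IL-33, had 0 to 4 raw counts in any animal and was not tested. Its shared partner chain Il1rap was measured at 102 ± 26.7 (SD, n = 6) against 87.4 ± 15.5 (SD, n = 5), with a DESeq2 log2 fold change of -0.23 (95% interval -0.62 to 0.17, adjusted p = 0.703).

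Cxcl12, the ligand of Cxcr4 and Ackr3, lay on the other side. The Abi3 WT animals had 119 normalized counts at the lowest, 140.4 at the median and 188 at the highest. The Abi3 KO animals had 80.8, 108, 166, 91.5 and 102. Of these, 4 of 5 lay below every Abi3 WT animal, whereas Abi3 KO replicate 3, with 166, lay inside the upper part of the Abi3 WT range. The means were 146 ± 25.5 (SD, n = 6) and 109.7 ± 33.1 (SD, n = 5), a DESeq2 log2 fold change of -0.41 (SE 0.184, 95% interval -0.77 to -0.046) with an adjusted p of 0.331. The exact permutation test gave p = 0.0606. Without Abi3 KO replicate 3 the log2 fold change was -0.60 and the DESeq2 adjusted p was 0.0463, which is past the threshold. That animal was left out in the same way as each of the others in turn. Without Abi3 WT replicate 1, Abi3 WT replicate 2 or Abi3 KO replicate 5, Cxcl12 had no adjusted p and could not pass. Without each of the remaining animals, Cxcl12 had an adjusted p and did not pass.

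Markers of the cells that release Cxcl12 were set beside it. Endothelial markers were lower in 5 of 6 cases, with log2 fold changes from -0.92 for Cdh5 to 0.27 for Flt1, and none passed the threshold. The summed endothelial level, 149 to 201 CPM in Abi3 WT and 166 to 186 in Abi3 KO, overlapped fully. Among 5 fibroblast markers of the meninges, Col1a1 had a log2 fold change of -0.93 and the other 4 had positive values, with summed levels of 28.2 to 92.5 and 37.0 to 88.5 CPM. The part of these markers in the Cxcl12 values was not tested. Without the 3 libraries rich in Ttr the log2 fold change of Cxcl12 was -0.31.

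Of the 2 receptors of Cxcl12, only the scavenging receptor Ackr3 could be compared, at 30.3 ± 10.9 (SD, n = 6) against 36.3 ± 7.79 (SD, n = 5) (DESeq2 log2 fold change 0.25, 95% interval -0.34 to 0.84). The signalling receptor Cxcr4 had 0 to 5 raw counts per animal.

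**Figure D2:**
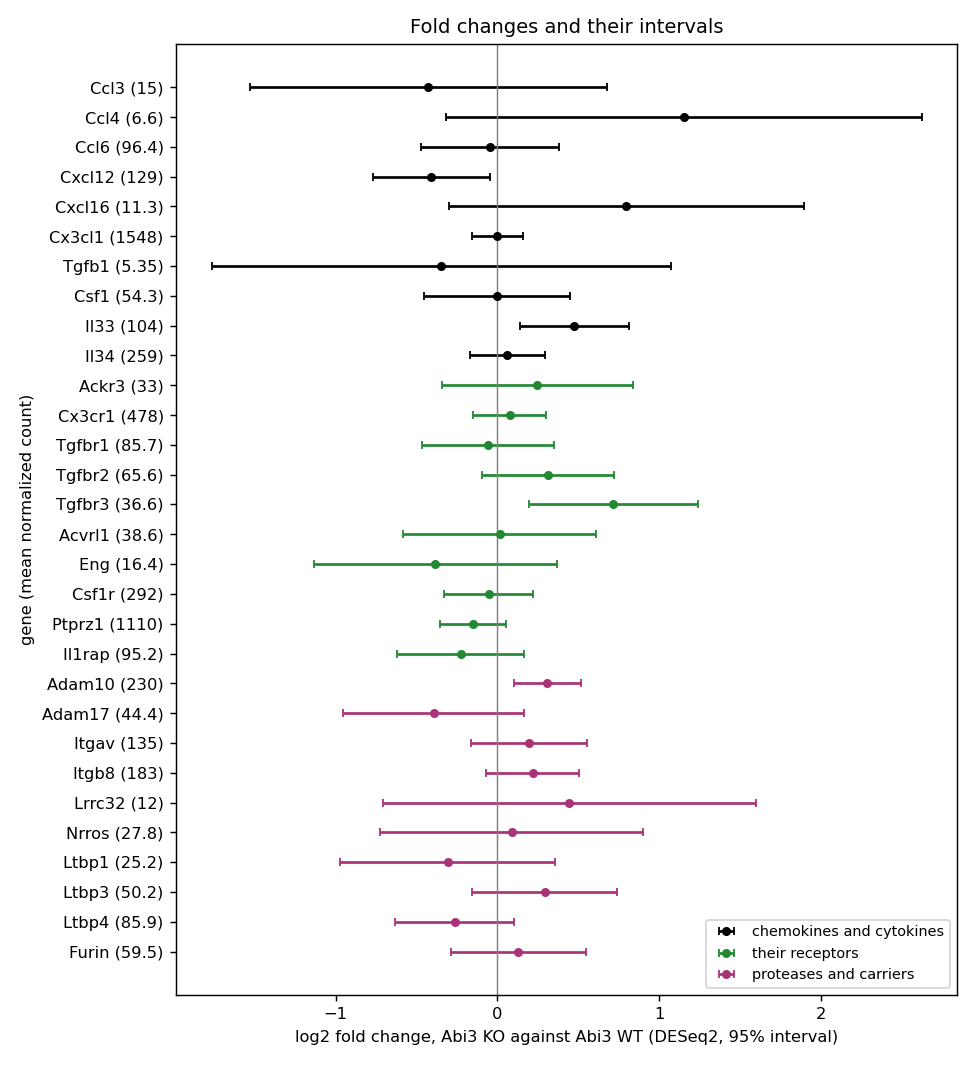
Log2 fold change (horizontal axis) of the 10 genes and of receptor and processing genes whose mean reached 10 normalized counts (vertical axis, mean in parentheses), Abi3 KO against Abi3 WT; points are DESeq2 estimates and bars are 95% intervals. The interval of Cx3cl1 is the narrowest of the 10 genes, that of Ccl4 the widest, and those of Il33, Cxcl12, Tgfbr3 and Adam10 do not include 0.

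Cx3cl1, the neuronal chemokine that tethers to or is shed from the membrane, gave the most precise comparison. It had 1373, 1540 and 1727 normalized counts at the lowest, median and highest of the Abi3 WT animals, and 1402, 1552, 1641, 1345 and 1799 in the Abi3 KO animals. The ranges lay almost on top of each other. The means were 1549 ± 122 (SD, n = 6) and 1548 ± 183 (SD, n = 5). The DESeq2 log2 fold change was 0.00014 (SE 0.080), with a 95% interval of -0.16 to 0.16. Normalized counts of its microglial receptor Cx3cr1 were 466.2 ± 55.5 (SD, n = 6) and 492 ± 85.5 (SD, n = 5), with a log2 fold change of 0.077 (95% interval -0.15 to 0.30).

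Cxcl16, the other membrane-bound chemokine, was measured with few counts. The Abi3 WT animals had 1.14 normalized counts at the lowest, 9.47 at the median and 12.04 at the highest. The Abi3 KO animals had 4.19, 19.2, 19.1, 26.0 and 5.69. Values above the whole Abi3 WT range were found in 3 of 5 Abi3 KO animals, while Abi3 KO replicates 1 and 5 lay below the Abi3 WT median. The means were 8.43 ± 4.10 (SD, n = 6) and 14.8 ± 9.46 (SD, n = 5). The log2 fold change was 0.80 (SE 0.561), with a 95% interval of -0.30 to 1.90 that holds both no change and a 3.72-fold rise, and DESeq2 gave no adjusted p because the mean was under its filter. With that filtering switched off the DESeq2 adjusted p was 0.790. The 2 low Abi3 KO libraries were among the 3 rich in Ttr; without all 3 of them the log2 fold change was 1.45. The receptor Cxcr6 had 0 to 4 raw counts per animal and was not tested.

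The proteases that shed Cx3cl1 and Cxcl16 from the cell surface were Adam10 and Adam17. Adam10, which also cleaves APP, had 188 normalized counts at the lowest, 209 at the median and 226 at the highest in Abi3 WT animals, and 261, 267, 242, 269.9 and 245 in Abi3 KO animals. The genotypes did not overlap, as in 1.04% of all genes, and Adam10 was the 1 gene of the 69 tested pathway genes of which this was so. The means were 207 ± 15.4 (SD, n = 6) and 257 ± 12.7 (SD, n = 5), a DESeq2 log2 fold change of 0.31 (SE 0.105) with an adjusted p of 0.121, which did not pass. Adam17 had a log2 fold change of -0.39 (95% interval -0.95 to 0.16).

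The microglial CC chemokines Ccl3 and Ccl4 are neighbours on chromosome 11. Ccl3 had 1.45 normalized counts at the lowest, 18.2 at the median and 25.1 at the highest in Abi3 WT animals, and 5.24, 12.1, 23.9, 18.1 and 3.41 in Abi3 KO animals. The spread within each genotype, 17.0 ± 8.75 (SD, n = 6) and 12.5 ± 8.60 (SD, n = 5), exceeded the difference of the means, and the DESeq2 log2 fold change was -0.43 (SE 0.563, 95% interval -1.53 to 0.68). Ccl4 had 2.17, 3.43 and 8.46 at the lowest, median and highest of the Abi3 WT animals, and 0, 15.2, 21.5, 6.78 and 3.41 in the Abi3 KO animals. Its Abi3 KO values ran from no count to more than any Abi3 WT animal, with a log2 fold change of 1.15 (SE 0.751, 95% interval -0.32 to 2.62).

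The same animals were low for both genes: Abi3 KO replicates 1 and 5 had the lowest values of their genotype, and Abi3 WT replicate 5 the lowest of its own. Abi3 KO replicates 1 and 5 were also the Abi3 KO libraries rich in Ttr, whereas Abi3 WT replicate 4, the third such library, had 15.3 normalized counts of Ccl3 and 2.56 of Ccl4, the latter the second lowest of its genotype. Without these 3 libraries the log2 fold change was 0.075 for Ccl3, so its direction turned, and 1.68 for Ccl4. The part of the material rich in Ttr in these values was not tested.

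Ccl6, which also binds Ccr1, was better covered. The Abi3 WT animals had 66.9 normalized counts at the lowest, 99.8 at the median and 126 at the highest, and the Abi3 KO animals had 107, 78.8, 88.3, 134 and 64.9. High and low values occurred in both genotypes. The means were 97.8 ± 25.4 (SD, n = 6) and 94.7 ± 27.0 (SD, n = 5), a DESeq2 log2 fold change of -0.046 (SE 0.217, 95% interval -0.47 to 0.38) with an adjusted p of 0.962. With the reads outside genes entered as a covariate (adjusted p = 1.00), the log2 fold change of Ccl6 turned to 0.72.

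Among the receptors of these chemokines, Ccr1 lies below the count needed for naming and is given because its values were uneven: raw counts of 0, 1, 2, 0, 0 and 0 in the Abi3 WT animals and of 6, 0, 11, 0 and 8 in the Abi3 KO animals. No fold is given for it, and DESeq2 gave an adjusted p of 0.353 with the filtering switched off.

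Microglia were followed by 10 marker genes. Of these, 9 had positive log2 fold changes, from -0.015 for Siglech to 0.49 for Aif1, and none passed the threshold, the nearest being C1qa with a DESeq2 adjusted p of 0.0783. Their summed level was 446 to 612 CPM in Abi3 WT and 509 to 712 in Abi3 KO libraries. For 6 genes of plaque-associated microglia, among them Cst7, Itgax and Axl, 2 were positive and the median log2 fold change was -0.043. The 6 border macrophage and monocyte markers with enough counts for a fit had positive values, and none of them was given an adjusted p. All 8 markers of this list summed to 5.53 to 12.4 and 10.1 to 15.8 CPM. T cell markers summed to 0.877 to 8.72 and 2.19 to 6.79 CPM, and this sum was mostly Cd4. Over all animals Cd4 had 159 raw counts, Trac 15, and Cd3e, Cd3d, Cd3g and Cd8a 3 each. Only Cd4 had enough counts to be tested, so the sum does not measure T cell genes as a group. The part of these markers in the chemokine values was not tested.

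The ligands of Csf1r, which keep microglia alive, were compared next. Csf1 had 47.6, 53.5 and 63.0 normalized counts at the lowest, median and highest of the Abi3 WT animals, and 44.0, 39.4, 51.3, 83.6 and 53.5 in the Abi3 KO animals. Abi3 KO replicate 4 lay above every other animal and 2 of 5 Abi3 KO animals lay below every Abi3 WT animal. The means were 54.2 ± 5.86 (SD, n = 6) and 54.4 ± 17.3 (SD, n = 5), and the DESeq2 log2 fold change was -0.0014 (SE 0.229, 95% interval -0.45 to 0.45).

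Il34 had 221, 249 and 296 at the lowest, median and highest of the Abi3 WT animals and 262, 312, 277, 210.1 and 266 in the Abi3 KO animals. The means were 254 ± 25.9 (SD, n = 6) and 266 ± 36.7 (SD, n = 5). The log2 fold change was 0.061 (SE 0.118, 95% interval -0.17 to 0.29) with a DESeq2 adjusted p of 0.898. For Csf1r itself, the common receptor, the means were 297 ± 56.0 (SD, n = 6) and 287 ± 47.7 (SD, n = 5), and the log2 fold change was -0.053 (95% interval -0.33 to 0.22). Ptprz1, a second receptor of IL-34 on glia, had a log2 fold change of -0.15 (95% interval -0.35 to 0.052), and Sdc1 had 0 to 8 raw counts per animal.

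Tgfb1 was the least covered of the 10 genes, with 1 to 11 raw counts per animal. It had 3.17, 5.77 and 9.37 normalized counts at the lowest, median and highest of the Abi3 WT animals, and 9.44, 9.09, 1.19, 1.13 and 2.28 in the Abi3 KO animals. The Abi3 KO values lay at both ends of the Abi3 WT range, 3 below it and 2 level with its top. The log2 fold change was -0.35 (SE 0.724), and its 95% interval of -1.76 to 1.07 ran from 0.294 to 2.11 times the Abi3 WT level.

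The main receptors of TGF-beta were better covered. The receptors Tgfbr1 and Tgfbr2 had log2 fold changes of -0.055 and 0.31, and the endothelial receptors Acvrl1 and Eng had values of 0.014 and -0.38, with 0 in each of these 4 intervals. Tgfbr3, the co-receptor betaglycan, had 20.9, 27.9 and 38.3 normalized counts at the lowest, median and highest of the Abi3 WT animals and 45.1, 61.6, 34.6, 45.2 and 45.5 in the Abi3 KO animals. All but 1 of the Abi3 KO values lay above every Abi3 WT value. The DESeq2 log2 fold change of Tgfbr3 was 0.72 (SE 0.266), no adjusted p was given, and with the filtering switched off it was 0.334.

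Latent TGF-beta is held by carrier proteins and freed by integrins. The integrin chains Itgav and Itgb8 had log2 fold changes of 0.20 and 0.22, and the microglial anchor Nrros and its relative Lrrc32 had 0.089 and 0.44. The carriers Ltbp1, Ltbp3 and Ltbp4 had -0.31, 0.29 and -0.26, and Furin, which cuts the precursor, had 0.13. The DESeq2 intervals of these 8 genes included 0. Of 9 signal carriers and response genes, 9 were tested, 6 were given an adjusted p, 0 passed and 6 had positive values. The 3 with the most counts, Pmepa1, Ski and Skil, had log2 fold changes of -0.29, 0.022 and 0.10, and the inhibitor Smad7 had -0.19. For Pmepa1 the highest Abi3 WT value was 1279 normalized counts, while the medians were 563 in Abi3 WT and 545 in Abi3 KO animals.

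Most other chemokines and cytokines had too few counts to compare at this depth. Of 32 other chemokine ligand genes, 9 had no count in any animal, 12 were tested and 3 had a mean of at least 10, namely Cxcl14, Ccl27a and Ccl25. Their log2 fold changes were -0.096, 0.065 and -0.042, and of the 12, only 2 were given an adjusted p and 0 passed. Cxcl5 and Cxcl13, named after their values were seen, had unadjusted DESeq2 p-values of 0.0128 and 0.0132, but their means of 8.87 and 2.38 are too low to judge and neither was given an adjusted p. Cxcl5 had 0 to 10.3 normalized counts in Abi3 WT and 6.83 to 21.2 in Abi3 KO animals (log2 fold change 1.48, 95% interval 0.32 to 2.65). Cxcl13 had raw counts of 2, 0, 0, 0, 0 and 0 in Abi3 WT and of 0, 0, 1, 6 and 14 in Abi3 KO animals, and no fold is given for it. Other genes too low to judge, also named after their values were seen, went the other way. Ccl12 had a mean of 7.03 and a log2 fold change of -1.23 (95% interval -2.50 to 0.036). Ccl24 had 9 raw counts and the cytokine Lif 12, with 0 in every Abi3 KO animal. Of the 12 tested chemokines, 4 had positive values.

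Of 42 other cytokine genes, 12 had no count in any animal, 18 were tested, only 2 were given an adjusted p and 0 passed. Mif, Tgfb2 and Il18 had the most counts, with log2 fold changes of -0.086, 0.039 and -0.37. Il1b had a mean of 2.32 normalized counts and was too low to judge, Il6 had 9 raw counts over all animals and was not tested, and Tnf had none. Among 17 other chemokine receptors, 6 were tested, 1 was given an adjusted p and 0 passed; Ackr1, a vascular chemokine sink, had 198 normalized counts on average and a log2 fold change of 0.28 (95% interval -0.018 to 0.57). Of all 69 tested pathway genes, 20 were given an adjusted p and 0 passed in either direction, so the others could not pass with the filter on. Positive values were found in 39 of the 69, and the median log2 fold change over the 69 was 0.039, against -0.0033 over all tested genes.

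**Figure D3:**
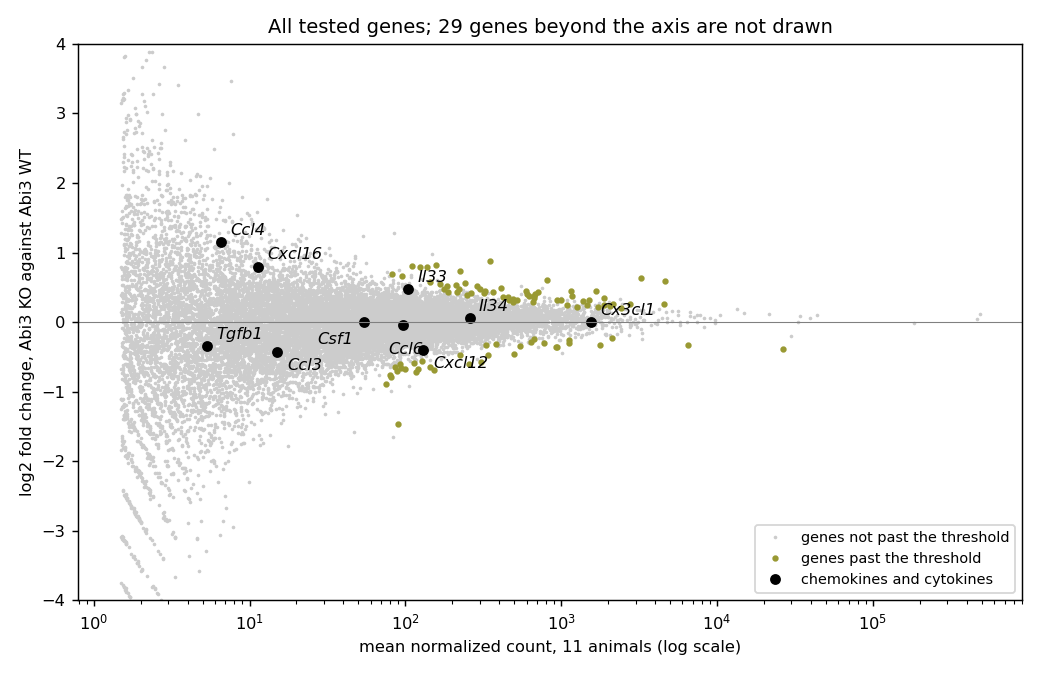
Log2 fold change, Abi3 KO against Abi3 WT (vertical axis), against the mean normalized count over 11 animals (horizontal axis, log scale) for all 17626 tested genes; 29 genes beyond 4 on the vertical axis are not drawn. The 10 named genes (black) lie inside the cloud of genes not past the threshold (grey), and the 95 genes past the threshold are drawn in olive.

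What these libraries could have shown differed widely between the 10 genes. The gene that passed with the largest unadjusted p had a DESeq2 p of 0.000731. At its own standard error, Cx3cl1 would have needed a 1.21-fold change to reach that p, Il34 1.32-fold, Il33 1.497-fold, Cxcl12 1.54-fold, Ccl6 1.66-fold and Csf1 1.71-fold. Cxcl16 and Ccl3 would have needed changes of 3.72-fold and 3.74-fold, Tgfb1 5.45-fold and Ccl4 5.80-fold. For these 4 genes and Csf1, which had no adjusted p, reaching that p would not have meant passing with the filter on. Their folds show precision only. The 95% intervals of 6 genes, Ccl6, Cxcl12, Cx3cl1, Csf1, Il33 and Il34, lay within a 2-fold change in both directions. Those of the other 4 did not. With mean normalized counts of 6.60 and 5.35, Ccl4 and Tgfb1 fell under 10 and are too low to judge, and for Ccl3 and Cxcl16, at 15.0 and 11.3, changes of 2-fold in at least 1 direction are left in.

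**Figure D4:**
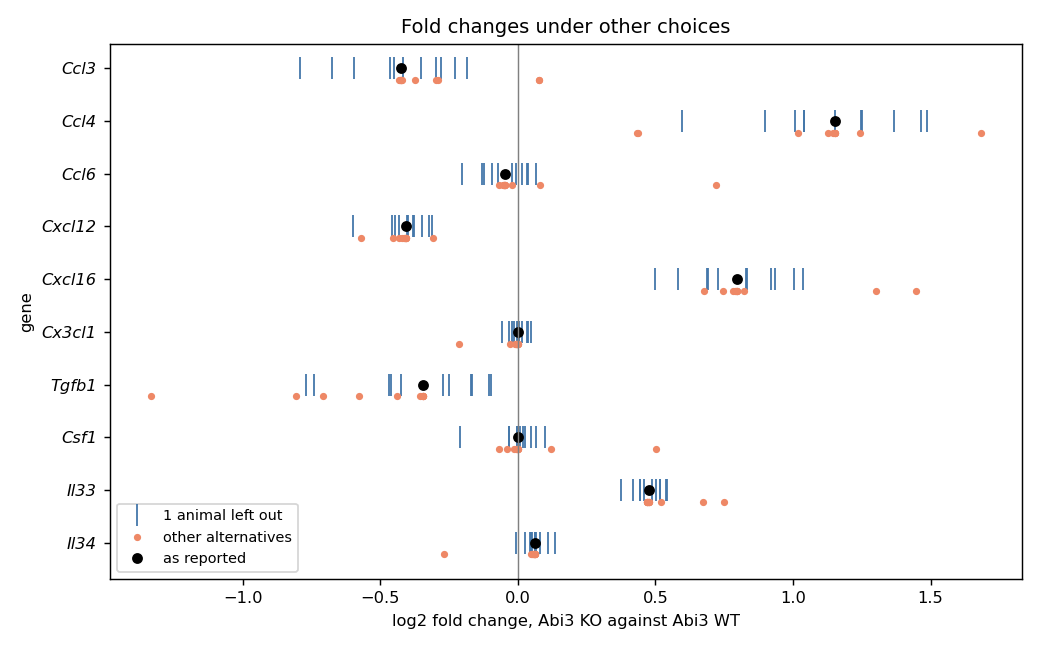
Log2 fold change, Abi3 KO against Abi3 WT (horizontal axis), of each gene (vertical axis) as reported (black), with 1 animal left out (blue ticks) and under the other alternatives (orange). Il33, Cxcl16 and Ccl4 stay above 0 and Cxcl12 and Tgfb1 below 0 throughout, while Ccl3, Ccl6, Cx3cl1, Csf1 and Il34 have points on both sides of it.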

How the data were processed

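The deposited files hold raw counts per Ensembl gene of 11 libraries. The authors trimmed reads, aligned them to GRCm39 with STAR (2.7.3a) and counted uniquely aligned reads by strand with HTSeq (0.9.1); no removal of PCR copies is stated. GENCODE vM39 symbols matched 98.0% of identifiers. Replicates are taken as separate animals, as the study implies; p-values and intervals rest on the spread between them. A floor of 3 counts equals 0.545 to 0.937 CPM and covers counting error only.

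Counts were tested with DESeq2 (1.42.0, R 4.3.3) under the study's design, which holds genotype alone: total count at least 10, mean normalized count at least 1.5, adjusted p at or below 0.05, with independent filtering aimed at 0.05, which gave 6487 genes an adjusted p. Intervals are Wald intervals at 95%. A mean normalized count under 10 was called too low to judge. The members and lists were chosen with earlier results of these data known. Named genes are Abi3, the members, receptor and processing genes with a mean of at least 10, and of the other lists those with p under 0.05 at such a mean and the 3 with the highest means; others are named as chosen after their values were seen, among them Smad7, Il1b, Il6, Tnf and receptors given only by raw counts. Alternatives were edgeR (4.0.16), limma (3.58.1), TMM factors, other filters, a replicate block, reads outside genes as covariate, exact permutation on log2(normalized count + 1) and leaving out animals. The removal of 3 libraries rich in Ttr was chosen after seeing the data. Transcript ends were compared with BLAST (2.17.0). The fits were tested on simulated counts with changes of a single size, planted only in better covered genes. That test therefore does not cover genes with few counts or smaller changes. Some items that these rules select are not reported here. The marker Fcrls matched no symbol and was not used here.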

Additional observations from a re-analysis of the deposited data

How the results depend on the processing

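With the threshold kept, 0 of the 10 genes passed under the alternatives run, except without Abi3 KO replicate 3, when 1 passed (Cxcl12, -0.60). Leaving out 1 animal gave 0 to 1. Many alternatives gave a member no adjusted p, so it could not pass there. Il33 had an adjusted p in 14 of 22 alternatives and Cxcl12 in 16 of 22. Ccl3, Ccl4, Cxcl16 and Tgfb1 had one in 4 alternatives each. No pathway gene passed under any alternative. Over all genes, 95 became 37 with edgeR, 20 with limma, 57 with independent filtering off, 33 with the replicate block, 3 with a covariate for reads outside genes, 27 without the 3 libraries rich in Ttr, and 46 to 120 without 1 animal; the calls numbered 60 higher and 35 lower as reported, 17 and 20 with edgeR, and 22 and 5 without the libraries rich in Ttr. The cause of these shifts was not tested. Deviations of same-numbered animals had correlations of -0.0198 to 0.123 over 5 pairs, and 2 of 5 were highest with their own number. The mean was 0.0399, against -0.0101 for animals with unlike numbers. So few pairs cannot settle whether the replicate numbers pair animals. The replicate block turned 1 gene, Cx3cl1, to -0.0080.

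Signs turned for 4 genes with a value near 0 (Cx3cl1, Ccl6, Csf1 and Il34) and for Ccl3, reported at -0.43. Cx3cl1 had -0.0043 with edgeR, -0.012 with limma, -0.0071 with TMM factors, -0.0032 at a mean count of at least 10, -0.0050 in the permutation test, -0.029 without the libraries rich in Ttr, and -0.058 to 0.048 without 1 animal. With the covariate it had -0.21, Ccl3 0.077, Ccl6 0.72, Csf1 0.50 and Il34 -0.27, each with an adjusted p of 1.00. Without the libraries rich in Ttr, Ccl3 had 0.075, Ccl6 0.079 and Csf1 0.12. Without 1 animal Ccl6 ran from -0.20 to 0.064, Csf1 from -0.21 to 0.097 and Il34 from -0.0054 to 0.13. Il33 (0.38 to 0.75), Cxcl12 (-0.60 to -0.31), Cxcl16 (0.50 to 1.45), Ccl4 (0.43 to 1.68) and Tgfb1 (-1.33 to -0.096) kept their signs under the alternatives that gave them a value. Where one was given, adjusted p-values of Il33 ran from 0.149 to 1.00 and of Cxcl12 from 0.0463 to 1.00. Without the libraries rich in Ttr, Il33 had an unadjusted DESeq2 p of 0.00121 and no adjusted p.

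Ccl3, Ccl4, Cxcl16 and Tgfb1 had the lowest mean counts and the widest intervals, and as reported the filter at a mean of 70.4 left these 4 and Csf1 without an adjusted p.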
